A study of Mus musculus with 8 samples.

Results

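The genes described here are 9 chaperones and folding enzymes of the endoplasmic reticulum and the transcription factor Xbp1, measured by RNA sequencing in mouse intraepithelial lymphocytes, immune cells lodged in the epithelium of the gut. They are Hspa5, Hsp90b1, Dnajb9, Sdf2l1, Calr, Canx, Pdia3, Pdia4, Pdia6 and Xbp1, which are 10 of the 52661 genes in the deposited tables. The genes were chosen by a measured value, the level of Hspa5, which was lower in every osteopontin library than in any null library. Values of that contrast are therefore given below as a description. All 10 symbols were found, and all 10 genes passed the filter on low counts that left 18631 genes.

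The cells came from C57BL/6 mice and were sorted for CD45, the surface protein of white blood cells. In the osteopontin group they were cultured for 24 h at 37 C in RPMI medium with 10% serum and recombinant osteopontin at 2 µg/ml, and in the null group in the same medium for the same time without it. Osteopontin, a phosphoprotein that cells secrete, is a ligand of CD44 and of integrins. Each group has 4 libraries, named 1, 2, A and B in both. The labels give no age or sex, and nothing in them says that each library is its own animal or culture. The p-values then measure only how far these libraries scatter, which may be technical.

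Secreted and membrane proteins are folded in the endoplasmic reticulum. Hspa5 (BiP) and Hsp90b1 (GRP94) hold unfolded chains, the lectins Calr and Canx retain unfinished glycoproteins, and the Pdia enzymes form and rearrange disulfide bonds. When unfolded protein builds up, the sensors IRE1, ATF6 and PERK start the unfolded protein response. IRE1 cuts a short intron out of Xbp1 mRNA, and the spliced mRNA encodes an active factor that, with ATF6, turns on chaperone genes. Antibody-secreting plasma cells need this system and are the immune cells best known for high Xbp1.

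The labelled cell type was checked against marker genes. All 13 markers of T cells and intraepithelial lymphocytes averaged at least 1 CPM (reads of a gene, scaled to a common library size), and they summed to 7484 to 8295 CPM in osteopontin and 7362 to 8086 CPM in null libraries. Markers of other cell types were present as well. The 10 plasma cell markers summed to 4221 to 9189 CPM in osteopontin and 3260 to 10260 CPM in null libraries, and the 14 enterocyte markers to 305.5 to 369 and 292.6 to 368.7 CPM. Some libraries stood apart. Fibroblast markers summed to 332.3 CPM in null library 1 and 184.7 CPM in null library A, against 6.85 to 25.7 CPM elsewhere. Null library B held 91.5 CPM of goblet, Paneth, tuft and endocrine markers, against at most 13.7 CPM elsewhere. Osteopontin library B held 100.3 CPM of the stress genes Fos, Fosb, Hspa1a and Hspa1b, against 2.25 to 5.65 CPM in the other osteopontin libraries and 90.2 to 112.3 CPM in the null libraries. Library totals ran from 49108969 estimated reads in osteopontin library B to 71399847 in null library A.

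The upstream region of Hspa5 is shown because it carries the endoplasmic reticulum stress response element (ERSE), the site through which ATF6 and the spliced form of Xbp1 act together with NF-Y. The region covers the 250 bases before the RefSeq start of the gene, chr2:34771840-34772089 on the plus strand of GRCm38.p6, and capitals mark CCAAT and CCACG, the ends of the element. The GENCODE span of Hspa5 begins inside it, at base 34771970 of chromosome 2.
Hspa5 upstream region: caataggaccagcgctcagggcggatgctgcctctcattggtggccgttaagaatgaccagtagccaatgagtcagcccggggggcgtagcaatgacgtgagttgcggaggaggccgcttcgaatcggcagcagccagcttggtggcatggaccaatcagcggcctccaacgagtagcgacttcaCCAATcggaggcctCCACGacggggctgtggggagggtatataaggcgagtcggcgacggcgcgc

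Besides Hspa5, 4 members hold the element, and their matches are shown so that the fixed ends and the varying spacer can be compared. Each is written 5′ to 3′ along the gene's own strand, with the fixed bases in capitals. Hsp90b1 holds it on both strands, and in Calr it lies on the opposite strand, where it reads CGTGG, the spacer and ATTGG. First bases lie at -65 in Hspa5, -212 and -107 in Hsp90b1, -162 in Calr, -145 in Canx and -98 in Pdia6, counted from the RefSeq start.
Hspa5: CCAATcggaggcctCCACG
Hsp90b1, first: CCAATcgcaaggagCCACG
Hsp90b1, second: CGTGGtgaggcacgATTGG
Calr: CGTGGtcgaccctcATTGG
Canx: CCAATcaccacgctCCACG
Pdia6: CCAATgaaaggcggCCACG

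The motif searched was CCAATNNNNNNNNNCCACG on both strands, in RefSeq windows from 250 bases before to 50 bases after each start. It was present in 39 of 32851 windows (0.119%), in 5 of the 10 members, and in 6 of 111 other genes of the endoplasmic reticulum that had a window. The related ERSE-II, in which ATTGG and CCACG lie 1 base apart, was in 12 windows (0.0365%), in no member and in 2 of the other genes. The core TGACGTG of the unfolded protein response element, a site of spliced Xbp1, was in 661 windows (2.01%), in Hspa5 alone among the members, and in 11 of the other genes. The ends are common on their own: CCAAT was in 37.4% of windows and 9 members, and CCACG in 32.8% of windows and 8 members. Both are part of the longer motifs and overlap them. No element was matched in the windows of Pdia3, Pdia4, Dnajb9, Sdf2l1 and Xbp1, which says only that these letters are not there.

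As levels corrected for transcript length (TPM, which sums to the same total in every library, added up over the transcripts of a gene), the members spanned a wide range. Hsp90b1 averaged 206.7 TPM over the 8 libraries (188.6 to 227.3), Hspa5 204.6 TPM (166.8 to 244.7) and Calr 199.6 TPM (174.7 to 243.4). Pdia3 averaged 178.8 TPM, Canx 125.7 TPM, Xbp1 117.7 TPM and Pdia6 84.9 TPM. The lowest averages were those of Pdia4, 52.9 TPM, the co-chaperone Sdf2l1, 45.7 TPM, and the J-domain protein Dnajb9, 19.2 TPM. By mean TPM, Hsp90b1 ranked 703rd and Dnajb9 7453rd of all 52661 genes.

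The order was tested between neighbours by an exact sign-flip permutation test of log2 TPM within libraries, two-sided and adjusted over the 9 pairs. In 5 pairs the first gene was higher in all 8 libraries (exact p = 0.00781, the smallest that 8 libraries allow, adjusted p = 0.0141): Calr above Pdia3, Pdia3 above Canx, Pdia6 above Pdia4, Pdia4 above Sdf2l1, and Sdf2l1 above Dnajb9. Hsp90b1 and Hspa5 (mean log2 TPM difference 0.03, SD 0.25), Hspa5 and Calr (0.03, SD 0.21) and Canx and Xbp1 (0.11, SD 0.26) did not differ beyond their spread. Xbp1 was above Pdia6 in 7 of 8 libraries (difference 0.47 in log2 TPM, SD 0.44, exact adjusted p = 0.0586), and without osteopontin library B in 7 of 7 (0.61, SD 0.16, exact adjusted p = 0.0234). Counting coding transcripts only gave another order, with Hsp90b1 followed by Pdia3, Calr, Hspa5, Xbp1 and Canx. There Pdia3 lay above Calr in 6 of 8 libraries (difference 0.13 in log2 TPM, SD 0.16, exact adjusted p = 0.0615), the reverse of the order over all transcripts. Xbp1 lay above Canx in 7 of 8 (0.25, SD 0.22, exact adjusted p = 0.0402). Same-named libraries deviated together from their group means, so the 8 libraries cannot be taken as independent. All p-values of this order may therefore be too small. The neighbours were also picked by the same levels that were then tested.

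**Figure D1:**
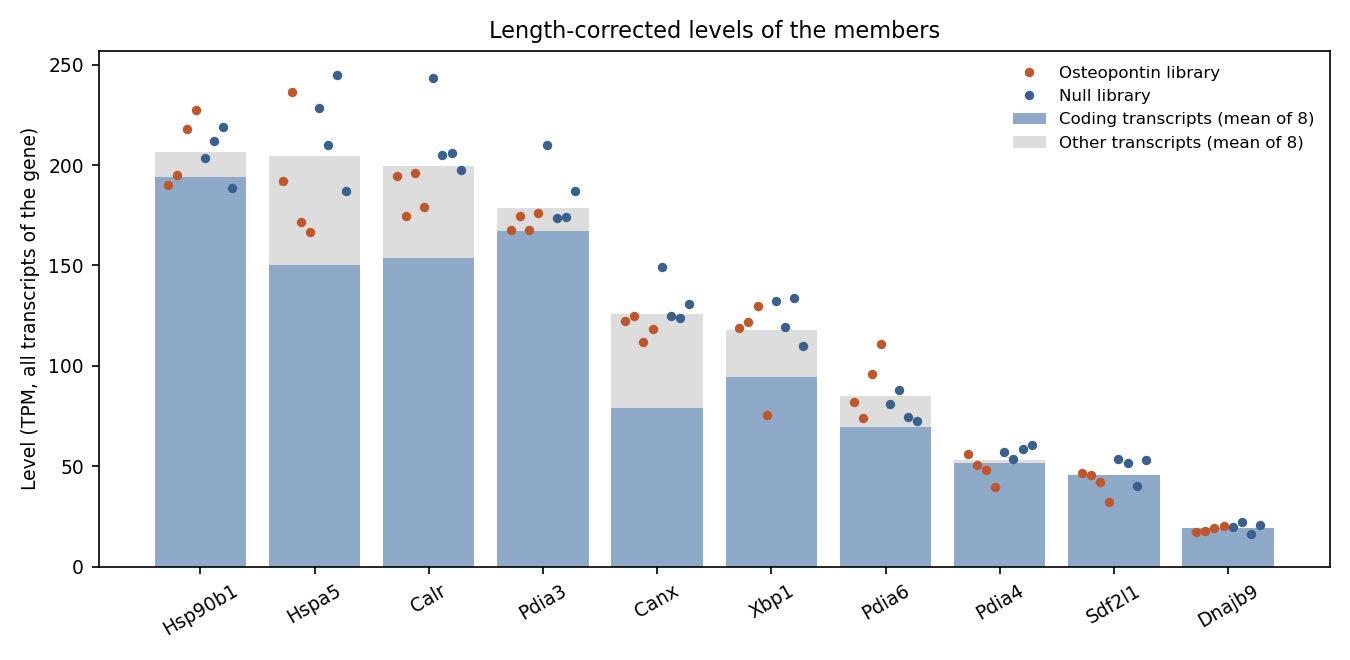
Length-corrected level of each member in TPM (vertical axis), ordered by mean over 8 libraries. Bars are means, split into coding and other transcripts, and points are the osteopontin and null libraries. Hsp90b1, Hspa5 and Calr average 206.7, 204.6 and 199.6 TPM with overlapping points, and Dnajb9 is lowest at 19.2 TPM.

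Most of each gene's TPM lay on coding transcripts, with exceptions that bear on the comparison. In Hspa5 the coding transcripts held 60.0% to 81.7% of the TPM, because a 477-base transcript annotated for nonsense-mediated decay took 14.5% to 38.8%. In Canx a 708-base processed transcript took 32.5% to 44.9%, and in Calr a 943-base retained-intron transcript took 6.03% to 30.8%. These short models share sequence with the coding transcript, and the division of reads between them is an estimate. In Sdf2l1 and Dnajb9 all annotated transcripts are coding. Summed counts, used for the levels below, are less affected, since short transcripts carry few reads: the decay-annotated Hspa5 transcript held between 284.8 and 1242.3 estimated reads per library, and the main coding one between 10481.1 and 19923.3.

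Between the groups, 9 of the 10 members had a lower fitted level with osteopontin, and none passed the test. Hspa5 had the smallest unadjusted p, 0.0017, and Pdia6 was the exception in direction. Fold changes are log2 ratios of osteopontin over null from edgeR, levels are CPM on TMM-scaled totals, and errors are SD over 4 libraries. In bulk RNA, fewer cells that express a gene and less of its RNA per cell cannot be told apart.

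Hspa5 (chromosome 2, 34771970 to 34777547, a whole-gene span on GRCm38 like the others given), the HSP70 chaperone that also holds the stress sensors inactive, stood at 254.8, 264.1, 235.1 and 229.9 CPM in osteopontin libraries 1, 2, A and B. In the null libraries of those names it stood at 293.8, 296.4, 311.6 and 270.7 CPM. Every osteopontin library was below every null library, and the gap between the nearest, osteopontin 2 and null B, was small beside the spread within the groups. The means were 246 ± 16.2 CPM with osteopontin and 293.1 ± 16.9 CPM without, a log2 fold change of -0.25 (95% interval -0.39 to -0.11), or 16.1% lower. Its adjusted p over all genes was 0.9999 in edgeR's quasi-likelihood test. DESeq2 gave a fold change of -0.25 with an adjusted p of 0.0473, which made Hspa5 its only call among the members, while DESeq2 called 0.289% of its tested genes lower.

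The length-corrected level of Hspa5 depended on which transcripts were counted. Over coding transcripts it was 140.9, 141.7, 131.3 and 135.9 TPM in osteopontin libraries 1, 2, A and B, against 165, 162.5, 170.1 and 152.7 TPM in the null libraries, again without overlap. Over all transcripts it was 192.3, 236.3, 171.4 and 166.8 TPM with osteopontin, against 228.6, 209.9, 244.7 and 186.9 TPM without. There the groups overlapped, osteopontin library 2 being second highest of the 8, and that library gave the largest share, 38.8%, to the short decay-annotated transcript.

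Hsp90b1 (chromosome 10, 86690209 to 86705509), the HSP90 of the endoplasmic reticulum, which serves Toll-like receptors and integrins among others, stood at 337.8, 348.9, 367.2 and 373.8 CPM in osteopontin libraries 1, 2, A and B. The null libraries had 371.7, 376.1, 403.3 and 347.2 CPM. The groups overlapped, with osteopontin B above 2 of the null libraries, and the log2 fold change was -0.07 (95% interval -0.20 to 0.06).

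Dnajb9 (chromosome 12, 44205559 to 44210326), a J-domain co-chaperone of Hspa5 known in hamster cells as a repressor of IRE1, had the largest fitted fold change of the 10, and also a wide interval. It stood at 25.7, 28.3, 21.6 and 19.3 CPM with osteopontin in libraries 1, 2, A and B, against 31.4, 33.9, 26.4 and 26.7 CPM without. The log2 fold change was -0.32 (95% interval -0.64 to -0.00). Only osteopontin library 2 reached into the null range, and each osteopontin library lay below the null library of its name. Sdf2l1 (chromosome 16, 17130138 to 17132383), an Hspa5 co-factor that keeps unfolded chains from aggregating, stood at 29.0, 29.1, 26.9 and 19.7 CPM with osteopontin, against 33.9, 33.5, 25.7 and 33.9 CPM without. Null library A lay below 3 of the osteopontin libraries, so the groups overlapped, and the log2 fold change was -0.28 (95% interval -0.59 to 0.04).

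The lectin chaperones work as a soluble and a membrane-bound pair. Calr (chromosome 8, 84841850 to 84846934), the soluble one, stood at 248.4, 226.7, 229.5 and 189.9 CPM with osteopontin in libraries 1, 2, A and B, against 271.2, 263.2, 239.6 and 229.6 CPM without. The groups overlapped, since osteopontin library 1 lay above null A and B, and the log2 fold change was -0.17 (95% interval -0.34 to 0.01). Canx (chromosome 11, 50293961 to 50325673), the membrane-bound one, varied least: 208.6, 211.8, 203.9 and 204.5 CPM with osteopontin, against 219.9, 226, 221.9 and 228.3 CPM without. All osteopontin libraries were below all null libraries, by a small amount, with a log2 fold change of -0.11 (95% interval -0.23 to 0.01), or 7.5% lower.

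Of the disulfide isomerases, 2 had groups that did not overlap and 1 had groups that did. Pdia3 (chromosome 2, 121413775 to 121438687), which partners the lectins and is part of the complex that loads peptides on MHC class I, stood at 297.1, 306.3, 284.3 and 270.2 CPM with osteopontin in libraries 1, 2, A and B, against 323.3, 316.8, 311.3 and 340.6 CPM without. The groups did not overlap, and the log2 fold change was -0.16 (95% interval -0.29 to -0.03). Pdia4 (chromosome 6, 47796141 to 47813430), or ERp72, stood at 82.3, 78.2, 74.1 and 58.6 CPM with osteopontin, against 87, 84.8, 87.9 and 84.9 CPM without. It did not overlap either, with a log2 fold change of -0.23 (95% interval -0.44 to -0.02), and osteopontin library B lay far below the rest of its group. Pdia6 (chromosome 12, 17266545 to 17284770), or P5, an isomerase that partners Hspa5, stood at 98.1, 91.5, 105.1 and 114.8 CPM with osteopontin, against 101.9, 106.3, 97.1 and 97.6 CPM without. The groups overlapped with osteopontin library B highest, and the log2 fold change was 0.02 (95% interval -0.15 to 0.19).

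Xbp1 (chromosome 11, 5520659 to 5525893), the transcription factor that controls several of these genes, stood at 122.8, 132.9, 131.2 and 89.6 CPM with osteopontin in libraries 1, 2, A and B. Without osteopontin it stood at 135.7, 139.1, 146.8 and 115.5 CPM. The groups overlapped, and library B was the lowest of both groups. The log2 fold change was -0.17 (95% interval -0.43 to 0.08), and without osteopontin library B it was -0.06.

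**Figure D2:**
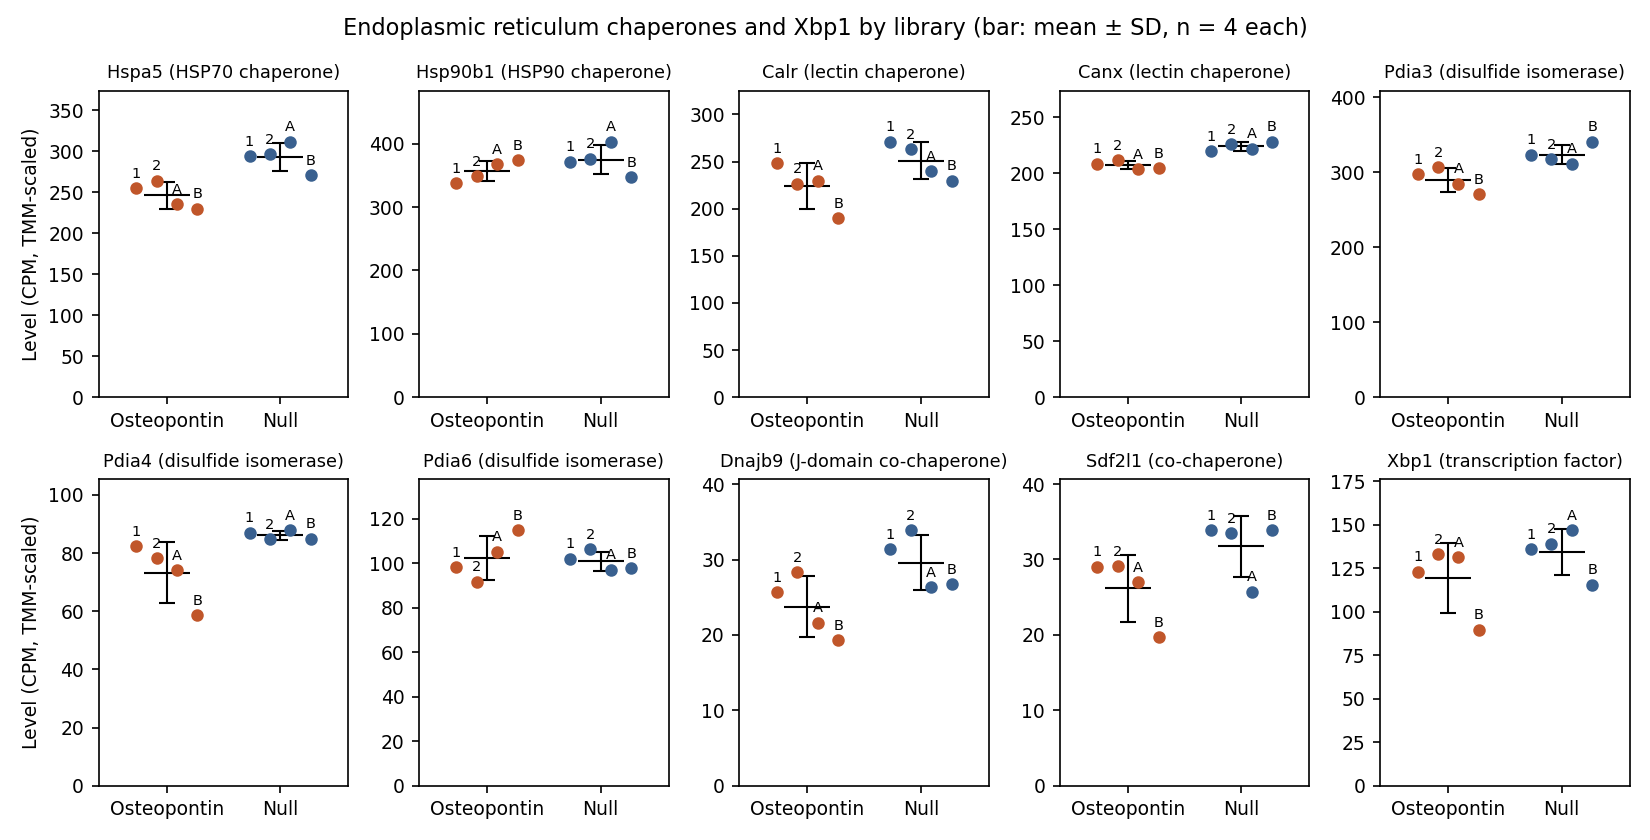
Level of each member in CPM (vertical axes, from 0) in the 4 osteopontin libraries, left, and the 4 null libraries, right, marked with their names. Horizontal and vertical bars are means and SD. Hspa5, Canx, Pdia3 and Pdia4 do not overlap between the groups, and osteopontin library B is lowest for 7 genes and highest for Pdia6.

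Over the list, 0 of 10 members were called at an adjusted p under 0.05, and 0% of the 18631 tested genes were. At an unadjusted p under 0.05, 4 members and 388 genes (2.08%) were lower, against 344 genes higher. With the library names as pairs (replicate block), 7 members and 2.87% of all genes were lower at that level, still with 0 called. Of the members, 9 were fitted lower, as were 49.9% of all genes. Of those 9, the 4 genes Hspa5, Canx, Pdia3 and Pdia4 were lower without overlap in CPM, as were 1.58% of all genes, while 1.89% of all genes were higher without overlap. On length-corrected levels over coding transcripts, Hspa5, Pdia3 and Pdia4 were again lower without overlap and Canx was not, against 1.1% of all genes. Over all transcripts Calr alone was, against 1.28% of all genes. Since the list was drawn up from this contrast, nothing is read from these shares. The median log2 fold change of the members was -0.17, against 0.00 over all tested genes. Summed over the members, the level was 1704, 1718, 1679 and 1570 CPM in osteopontin libraries 1, 2, A and B, against 1870, 1876, 1872 and 1775 CPM in the null libraries.

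Within libraries of the same name, 7 members were lower with osteopontin in all 4 pairs, as were 7.87% of all tested genes, and again nothing is read from this. The 7 were Hspa5, Calr, Canx, Pdia3, Pdia4, Dnajb9 and Xbp1. For Hspa5 the log2 CPM differences, osteopontin minus null, were -0.20, -0.17, -0.41 and -0.24 for the names 1, 2, A and B. Hsp90b1 and Sdf2l1 were lower in 3 of 4 pairs and Pdia6 in 2 of 4.

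Osteopontin library B had the lowest level of the 8 for 7 members, Hspa5, Calr, Pdia3, Pdia4, Dnajb9, Sdf2l1 and Xbp1. Without it, all 10 members were fitted lower and the median log2 fold change was -0.12. The fold change was then -0.22 for Hspa5, -0.14 for Pdia4, -0.10 for Calr and -0.04 for Pdia6. In the same library, B cell markers summed to 389.6 CPM, against 663.8 to 993.6 CPM in the other osteopontin libraries and 782.6 to 1078 CPM in the null libraries. Macrophage and dendritic cell markers summed to 82.2 CPM there, against 201.7 to 281.2 CPM in the other osteopontin libraries. In the null libraries they were lowest in B as well, at 118.6 CPM, against 228.4 to 296.7 CPM in the others. Of these lists, 10 of 10 B cell markers and 7 of 12 macrophage and dendritic cell markers averaged at least 1 CPM, and Cd14, Fcgr1, C1qa and C1qb were under 1 CPM in every library. The part of these cells in the members' levels was not tested. Without osteopontin library B and null libraries 1 and A together, the fold changes were -0.18 for Hspa5, -0.13 for Canx, -0.16 for Pdia3 and 0.01 for Xbp1.

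**Figure D3:**
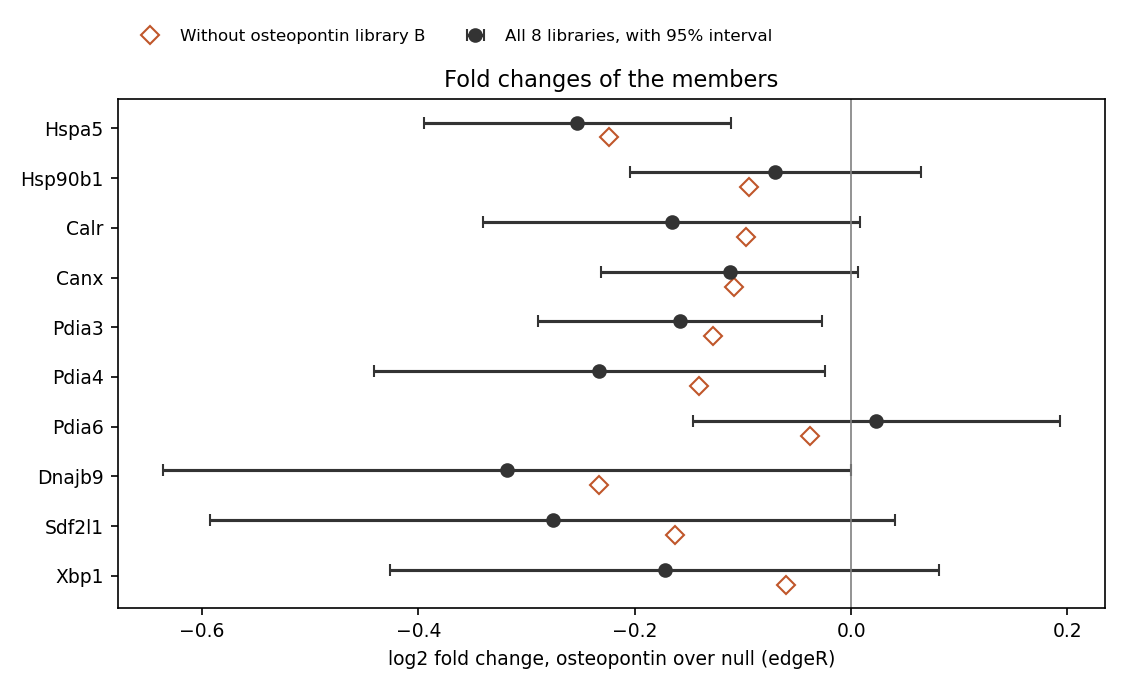
Log2 fold change of each member, osteopontin over null (horizontal axis). Filled circles with bars are edgeR estimates and 95% intervals from all 8 libraries, and open diamonds are estimates without osteopontin library B. The intervals of Hspa5, Pdia3 and Pdia4 lie below 0, that of Dnajb9 ends at 0, and Xbp1 moves to -0.06 without that library.

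The rest of the folding and secretion machinery gave no call. Of 135 other genes of the endoplasmic reticulum in 8 functional lists, 131 were tested, 0 were called, and 84 (64.1%) were fitted lower, with a median log2 fold change of -0.05. Over all tested genes 49.9% were fitted lower. Without overlap, 2 of the 131 were lower and 1 was higher, against 1.58% and 1.89% of all tested genes. By list, 14 of 20 other chaperones and co-chaperones were fitted lower (median -0.10), as were 10 of 14 oxidative folding enzymes (-0.05), 12 of 16 KDEL receptors and transport genes (-0.07) and 15 of 25 genes of the translocon and signal peptide processing (-0.06). Degradation genes had 9 of 14 fitted lower (-0.03), and glycoprotein quality control 5 of 14 (0.02).

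The sensors upstream of the members gave no call either. Of 14 tested sensors and regulators 11 were fitted lower (median -0.07). Ern1, which encodes IRE1, averaged 92.2 CPM with osteopontin and 97.0 CPM without (log2 fold change -0.07). Atf6 averaged 61.0 and 64.4 CPM (-0.08), and Eif2ak3, which encodes PERK, 78.6 and 79.8 CPM (-0.02). Ern2, the epithelial form of IRE1, was at 0 in all 8 libraries. In the PERK branch 8 of 14 genes were fitted lower (median -0.03). Atf4, its main transcription factor, averaged 183.2 CPM with osteopontin and 181.9 CPM without, and its target Ddit3 (CHOP) 41.7 and 38.9 CPM.

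From each list the 2 genes with the smallest unadjusted p were taken, and none passed (edgeR adjusted p = 0.9999 for each). Manf, a secreted Hspa5 co-factor, stood at 44.7, 36.6, 38.3 and 35.7 CPM in osteopontin libraries 1, 2, A and B, against 54.9, 44.4, 55.9 and 43.3 CPM without, a log2 fold change of -0.35 (95% interval -0.61 to -0.10). The groups overlapped in 1 osteopontin library. Atf3, an immediate stress-induced factor, stood at 1.42, 1.07, 1.30 and 5.02 CPM with osteopontin, against 9.01, 6.41, 8.68 and 5.50 CPM without (log2 fold change -1.75, 95% interval -2.76 to -0.74). It was lower without overlap, and osteopontin library B, the library with null-like levels of Fos and Hspa1 transcripts, stood close to the null range. Without that library Atf3 was called (log2 fold change -2.55, edgeR adjusted p = 0.00537). Over 18 alternatives its log2 fold change ran from -2.67 to -0.735, and 2 were calls, both without osteopontin library B. With an offset for effective length it was -0.735 (edgeR adjusted p = 0.999). With limma on log2(TPM + 0.1) it was -0.994 (limma adjusted p = 0.883). Kdelr2, a receptor that returns chaperones to the endoplasmic reticulum, was also lower without overlap, at 23.9 ± 1.85 CPM with osteopontin and 27.9 ± 1.53 CPM without (-0.23).

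In the other genes named by the same rule the groups overlapped. The prolyl isomerase Fkbp2 had a log2 fold change of -0.43 (95% interval -0.84 to -0.02) and the degradation factor Vimp, or selenoprotein S, -0.31 (-0.60 to -0.03). Intervals that included 0 were found for the thioredoxin-like Txndc11 (-0.15) and Tmx4 (-0.12), the glucosidase Mogs (-0.10), the mannosidase-like Edem2 (-0.13) and the translocon genes Sec62 (-0.15) and Ssr2 (-0.22). The same held for Rtcb (-0.13), the ligase that rejoins cut Xbp1 mRNA, the NF-Y subunit Nfyc (-0.16) and the transcription factor Cebpg (-0.16). The degradation gene Derl2 (0.17) and the COPII coat gene Sec24c (0.10) were fitted higher.

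Plasma cell RNA was followed through Jchain, the joining chain of secreted IgA and IgM. Jchain stood at 410.6, 885.1, 954.3 and 382.2 CPM in osteopontin libraries 1, 2, A and B, against 515.9, 781.3, 1016 and 339.3 CPM in the null libraries. It was low in libraries 1 and B and high in libraries 2 and A of both groups. Between the groups it did not differ beyond its spread: the mean difference was -0.02 on the log2 scale (exact permutation p = 0.971 over 70 arrangements). That test took no account of the names. Within names the mean difference was also -0.02. Igha, the IgA heavy chain, followed the names in the same way, with 2594, 4812, 5831 and 2717 CPM with osteopontin and 3120, 4734, 6589 and 1885 CPM without. Igkc, the kappa light chain, was also low in libraries 1 and B and high in libraries 2 and A of both groups. It stood at 793.9, 1327, 1673 and 799.7 CPM with osteopontin and 912.4, 1264, 1652 and 769.5 CPM without. Mzb1 and Tnfrsf17 did not follow the names so closely. Mzb1, a chaperone of antibody chains, stood at 37.5, 31.6, 31.8 and 31.1 CPM with osteopontin in libraries 1, 2, A and B, highest in library 1, where Jchain was low, against 33.4, 30.6, 49.1 and 27.2 CPM without. The plasma cell receptor gene Tnfrsf17 (BCMA) was at 0.020 CPM in osteopontin B and 0.015 CPM in null B, under the 3-read floor of 0.061 and 0.046 CPM there, and at 1.04 to 2.07 CPM in the other 6 libraries.

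Xbp1 was the only member whose means over the 2 libraries of a name had the order of Jchain, namely A, 2, 1 and B. Its means were 139, 136, 129.2 and 102.5 CPM in that order, where those of Jchain were 985.1, 833.2, 463.2 and 360.7 CPM. Across the 8 libraries, Pearson's r of log2 CPM with Jchain was 0.718 for Xbp1 (exact permutation p = 0.0171, adjusted over 10 members 0.171) and Spearman's rho 0.762 (p = 0.0368, adjusted 0.368). Without the 2 libraries farthest from the median Jchain level, both B libraries, r was 0.652 (exact p = 0.175). As deviations from each group's mean, r was 0.794 (exact permutation within groups, adjusted p = 0.0347) and rho 0.810 (adjusted p = 0.104). Same-named libraries share their Jchain level, so the 8 points are not independent and these p-values are too small. The points also fall into 2 sets of 4 by Jchain, and no correlation was computed within so few.

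Neither Xbp1 nor any of the other members passed on log2 CPM itself, without group means removed. Hsp90b1 had r = 0.508, Hspa5 0.313, Pdia4 0.249, Calr 0.236, Dnajb9 0.206, Sdf2l1 0.009, Canx -0.032, Pdia3 -0.076 and Pdia6 -0.254, with exact permutation p of at least 0.190 for these. In Hspa5 the 2 libraries of the Jchain-rich name A stood at 235.1 CPM with osteopontin, second lowest of the 8 libraries, and 311.6 CPM without, the highest. In Pdia4 the 4 null libraries stayed within 84.8 to 87.9 CPM while their Jchain ran from 339.3 to 1016 CPM.

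**Figure D4:**
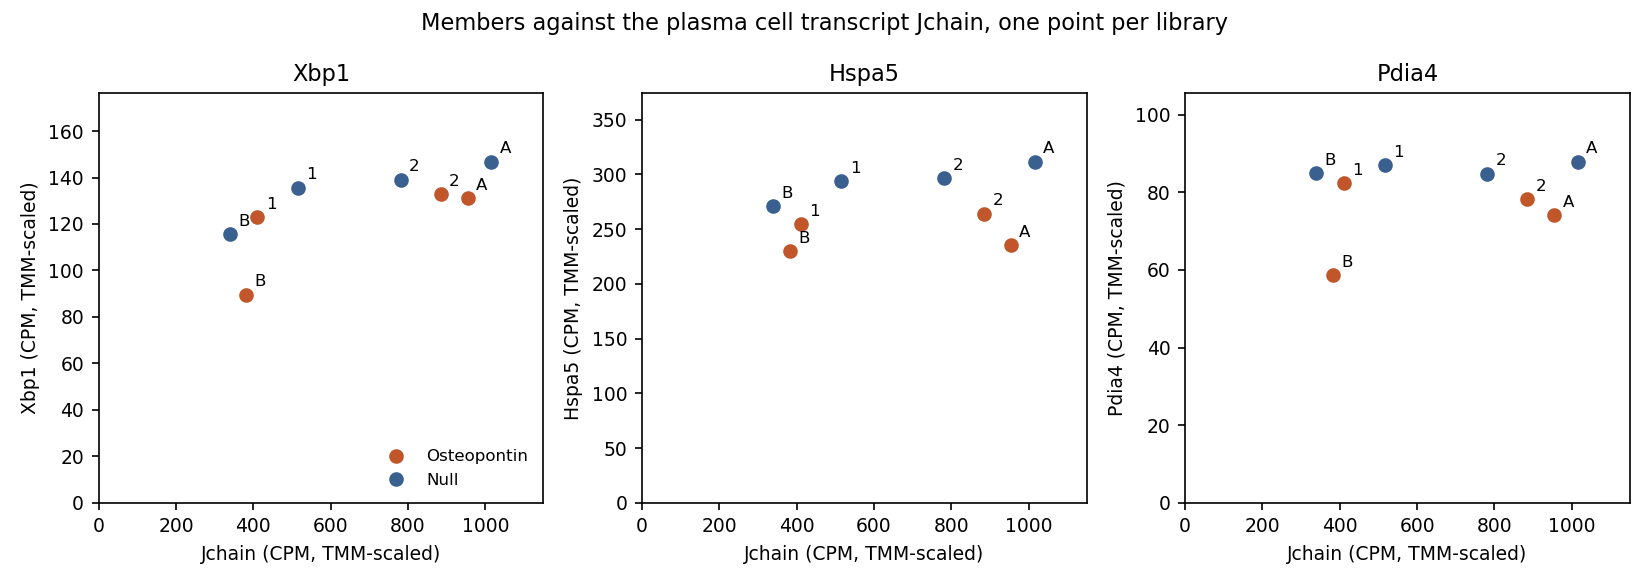
Level of Xbp1, Hspa5 and Pdia4 (vertical axes, CPM from 0) against Jchain (horizontal axes, CPM), with 1 point per library marked with its name. Jchain is low in libraries 1 and B and high in 2 and A of both groups, Xbp1 is lowest in both B libraries, and the 4 null points of Pdia4 lie between 84.8 and 87.9 CPM along the whole Jchain range.

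The members varied together only in part. Over the 8 libraries, with each group's mean removed, 31 of the 45 pairs of members had a positive Pearson r and 19 exceeded 0.5, with a median of 0.374. These are descriptions over 8 libraries that share their totals and the low osteopontin library B. No such share over all pairs of genes is set beside them, so nothing more is read from these counts. The highest were 0.820 for Pdia3 with Sdf2l1, 0.817 for Pdia4 with Xbp1 and 0.804 for Calr with Pdia4. The lowest were -0.856 for Hsp90b1 with Pdia3, -0.808 for Pdia3 with Pdia6 and -0.806 for Pdia4 with Pdia6. In osteopontin library B, Xbp1 and Sdf2l1 both deviated from their group mean by -0.39 on the log2 scale and Pdia4 by -0.31, while Pdia6 was 0.17 above. Null library A was high for Xbp1 (0.13) and low for Sdf2l1 (-0.29).

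**Figure D5:**
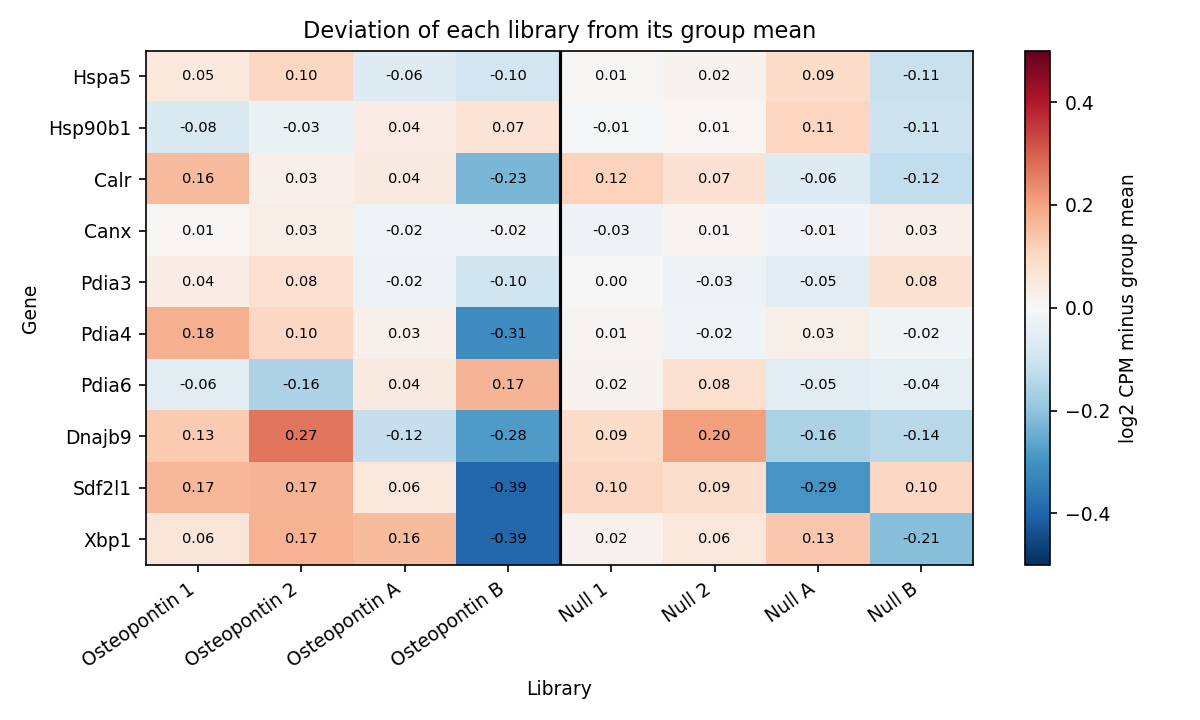
Deviation of each library from its group mean (color and printed value, log2 CPM) for the 10 members, with osteopontin libraries left of the black line and null libraries right of it. Osteopontin library B holds the lowest values, -0.39 for Xbp1 and Sdf2l1, together with a positive value of 0.17 for Pdia6.

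By this measure, Xbp1 was the member most like Hspa5 (r = 0.744, rank 397 of 9536 genes of at least 5 CPM), followed by Dnajb9 (0.649, rank 852), Pdia4 (0.641, rank 887) and Calr (0.537, rank 1505). Canx (0.212), Pdia3 (0.211), Sdf2l1 (0.193) and Hsp90b1 (0.129) were only weakly alike, and Pdia6 was opposite (-0.631). The 8 genes most like Hspa5 were Unc5cl (0.981), Kcnk5 (0.979), Adssl1 (0.972), Vti1b (0.970), Tusc3 (0.968), Dusp12 (0.965), Tnrc18 (0.963) and Ap2a2 (0.956). Among 9536 genes and 8 libraries, high values arise easily, and they are given with no test. None of these 8 is a member, and all are lower in level than Hspa5, with means from 7.35 CPM for Adssl1 to 104.7 CPM for Tnrc18.

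The form of Xbp1 mRNA that IRE1 makes could not be read from these tables. The site is shown because its removal marks an active response: 33 bases of the coding sequence at chr11:5524276-5524308, plus strand of GRCm38, with the 26-base intron in capitals.
Xbp1 intron site: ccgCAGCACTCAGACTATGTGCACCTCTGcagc
The shortest annotated intron in any of the 4 Xbp1 transcripts is 300 bases, and no annotated transcript lacks the 26 bases alone. The spliced form therefore has no transcript of its own to be counted under. How reads across the cut were assigned was not examined. The full-length 2129-base transcript, which holds the site, stood at 72.9, 81.2, 74.8 and 64.3 TPM in osteopontin libraries 1, 2, A and B, against 80.5, 87.9, 90.1 and 68.3 TPM in the null libraries. The groups overlapped, and library B was lowest in both. A 987-base retained-intron transcript without the site stood at 29.3, 26.25, 33.6 and 9.04 TPM with osteopontin, against 26.29, 17.95, 24.6 and 19.4 TPM without. Osteopontin library B was the lowest here too, osteopontin 1 and A lay above the null range, and osteopontin 2 lay just under null 1.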

How the data were processed

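RNA of CD45-sorted intraepithelial lymphocytes was sequenced from stranded Illumina libraries, per the labels' protocols. Salmon, which estimates transcript abundance, is listed in the submitters' processing notes. Its version and role, the transcript release and the build used were not given in the sources used here. For each library the authors deposited 1 table with estimated counts (reads per transcript), TPM and a length and effective length in bases, for 133618 transcripts of 52661 genes. Symbols and coding status are those in the deposited rows; 52566 genes matched GENCODE M21, the source of positions (GRCm38). Promoter windows are from RefSeq.

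Estimated counts were summed per gene and rounded. Osteopontin and null libraries were compared with edgeR 4.0.16 (quasi-likelihood F test, robust, TMM, filterByExpr with a minimum count of 10, group as the only term), with Benjamini-Hochberg adjustment over 18631 genes and calls at 0.05. Standard errors are the fold change over the square root of F. CPM were computed on TMM-scaled totals, with a prior count of 2 on the log scale. Deposited TPM were summed per gene for levels across genes. A floor of 3 reads was 0.042 to 0.061 CPM, for counting error only. Named genes were the members, the 2 genes of smallest p from each of 8 lists, and the 8 most like Hspa5. The members and lists were chosen with earlier results of these data known.

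The labels do not say what the names 1, 2, A and B share. Same-named libraries deviated together from their group means (r = 0.133, 0.204, 0.184 and 0.216 over 10616 genes, against -0.196 to 0.0826 for other pairs), so they were treated as pairs in 1 alternative. The other alternatives were DESeq2 1.42.0, limma 3.58.1 on log2(TPM + 0.1), other scaling, filter and offset settings, the naming style as a covariate, and libraries left out. Close relatives can share reads, which Salmon divides.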

Additional observations from a re-analysis of the deposited data

Results flagged for a closer look

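Sdf2l1 stood at 25.7 CPM in null library A, apart from the other null libraries at 33.9, 33.5 and 33.9 CPM. The gap to the nearest of them was 0.947 of the group's range. It was 1 of 22 groups examined in this way, and chance alone sets apart about 1 in 20.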

How the results depend on the processing

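With the replicate block 0 genes, 0 members and 0 other endoplasmic reticulum genes were called, and the mean Jchain difference within names was -0.02 on the log2 scale; the block changed no call, while members lower at an unadjusted p under 0.05 numbered 7, against 4 without it. A replicate block for the relation with Jchain was not run, since it leaves 4 differences. Over all genes, 0 calls became 80 with DESeq2 (21 higher, 59 lower, 0.289% lower), 4 without the filter, 49 without both B libraries, 59 without osteopontin B and null 1 and A, and 0 to 37 leaving out 1 library, the 37 without osteopontin B. Members called were 1 with DESeq2 (Hspa5) and 0 in the other 17 alternatives. Other endoplasmic reticulum genes called were 1 (Atf3) without both B libraries, and 0 to 1 leaving out 1 library. Members passing for Jchain were 1 (Xbp1) as deviations from group means and 0 in the other 14 alternatives, and r of Xbp1 ran from 0.522 (Mzb1 and Tnfrsf17 in place of Jchain) to 0.812. The Jchain difference ran from -0.30 to 0.23 leaving out 1 library, above 0 without osteopontin 1 (0.17) or B (0.20) and without null 2 (0.10) or A (0.23). Of 180 alternative fold changes of members 5 turned sign: Hsp90b1 0.011 with limma on TPM, Pdia6 -0.052 without both B libraries, -0.038 without osteopontin B (0.071 at most leaving out 1 library) and -0.060 without osteopontin B and null 1 and A, and Xbp1 0.013 in that last setting. Of 288 for the 16 named genes 2 did: Txndc11 0.006 without both B libraries and Edem2 0.003 without osteopontin B and null 1 and A. Hspa5 ran from -0.29 to -0.18 over 18 alternatives. Where calls or signs moved, the cause was not tested. Neighbours in level that differed numbered 5 to 7, the 7 over coding transcripts, where Pdia3 came before Calr and Xbp1 before Canx. At these totals the members' counts were 950 to 28900 reads a library. Over the tested genes, libraries of a group differed by far more than counting error, which alone gives a chi-square near 1 per gene. The chi-square averaged 37.4 to 51.5 for pairs of libraries 1, 2 and A, and 81.3 to 95 for pairs with a B library. For each member alone, counting error was not compared with the spread between libraries, and that spread was small for some members. Pdia4 stood at 86.2 ± 1.54 CPM in the null libraries, and Canx at 207.2 ± 3.71 CPM with osteopontin and 224 ± 3.80 CPM without.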
